A study of Mus musculus with 18 samples.

Results

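The genes described here are the contractile genes of the mammary myoepithelium together with the receptor that triggers their contraction. They are 10 genes, chosen by Entrez gene ID from the 27179 genes of the series' count table: the actins Acta2 and Actg2, the myosin genes Myh11, Myl9 and Mylk, the thin filament genes Cnn1, Tagln, Tpm1 and Tpm2, and the oxytocin receptor gene Oxtr. All 10 passed the filter on low counts, which left 16466 genes for testing.

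Female mice aged 14 weeks gave the mammary glands, and 3 sorted epithelial populations were profiled by bulk RNA sequencing: basal cells, luminal progenitors (LP) and mature luminal cells (ML). The sort gates named in the labels are P5 for basal cells, P7 for LP and P8 for ML. Each population came from 3 mice called KO below, which carried the Cre transgene MMTV-cre(T/+), deleted Brca2 alleles, Brca2(delta/delta), and 1 deleted Trp53 allele, Trp53(delta/+), and from 3 wildtype mice, called WT. One mouse gave 1 library of each population, so the 18 libraries form 6 groups of 3 mice. In the KO mice Cre was driven by the MMTV promoter, which is active in mammary epithelium, and 1 Trp53 allele was deleted along with Brca2. The labels also give the strain of the WT mice as MMTVcre Brca2(fl/fl) Trp53(fl/+), so which of these alleles the WT mice carried was not settled by the sources used here.

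Basal cells of the mammary gland include the myoepithelial cells, which lie around the alveoli and ducts and squeeze milk out of them. Oxytocin from the pituitary binds Oxtr, a receptor that acts through a G protein and phospholipase C to raise calcium in the cell. Calcium bound to calmodulin activates the myosin light chain kinase made by Mylk, which phosphorylates the regulatory light chain Myl9, and the smooth muscle myosin Myh11 then pulls on filaments of the actins Acta2 and Actg2. Tropomyosins (Tpm1, Tpm2), calponin (Cnn1) and transgelin (Tagln) bind those filaments.

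Library totals ran from 5.97 M to 39.2 M counts (M for mega). The LP libraries of WT mice (9.29 M to 16.2 M) were all shallower than those of KO mice (22.4 M to 32.7 M). Levels are given as counts-per-million (CPM) after TMM scaling, as mean ± SD of 3 mice, and tests as log2 fold changes with their standard error (SE) and a p-value adjusted over all 16466 genes, called at 0.05. As a check of the labels, Trp53 stood lower in KO mice: in basal cells (22.7 ± 11.6 against 74.9 ± 16.2 CPM), in LP (8.002 ± 0.934 against 96.7 ± 46.5 CPM) and in ML (15.2 ± 1.72 against 45.3 ± 5.09 CPM), with no overlap of libraries in any of them. These values check the direction only. The falls, the LP one above all, were larger than loss of 1 of 2 equal alleles would give, and the reason was not tested. Brca2 counts, summed over the whole gene, overlapped between the genotypes in all 3 populations. No source used here says which stretch of Brca2 was deleted, and those counts do not check the labels. The sorted populations carried their defining markers in WT mice: the keratin Krt5 was at 1874 ± 29.2 CPM in basal cells, the receptor Kit at 726 ± 203 CPM in LP and the estrogen receptor Esr1 at 231 ± 56.5 CPM in ML.

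In basal cells most of the contractile genes were abundant transcripts, and in luminal libraries those other than Tpm1 reached at most 69.6 CPM (Tagln). The 9 contractile genes together made up 10966 to 18335 CPM in WT basal libraries and 13006 to 14222 CPM in KO basal libraries, against 189 to 532 CPM in the 12 luminal libraries. Per kilobase of gene length, which allows genes to be compared, Acta2 led in WT basal cells with 2451 ± 641 CPM per kb. Tagln followed at 1404 ± 504 CPM per kb. Tpm2, Tpm1, Myl9, Myh11 and Cnn1 lay between 352 and 605 CPM per kb on average. Mylk, which encodes a kinase and not a filament protein, was at 124 ± 39.9 CPM per kb. Oxtr (54.0 ± 33.0) and Actg2 (51.6 ± 21.5 CPM per kb) were the lowest and their libraries overlapped.

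**Figure D1:**
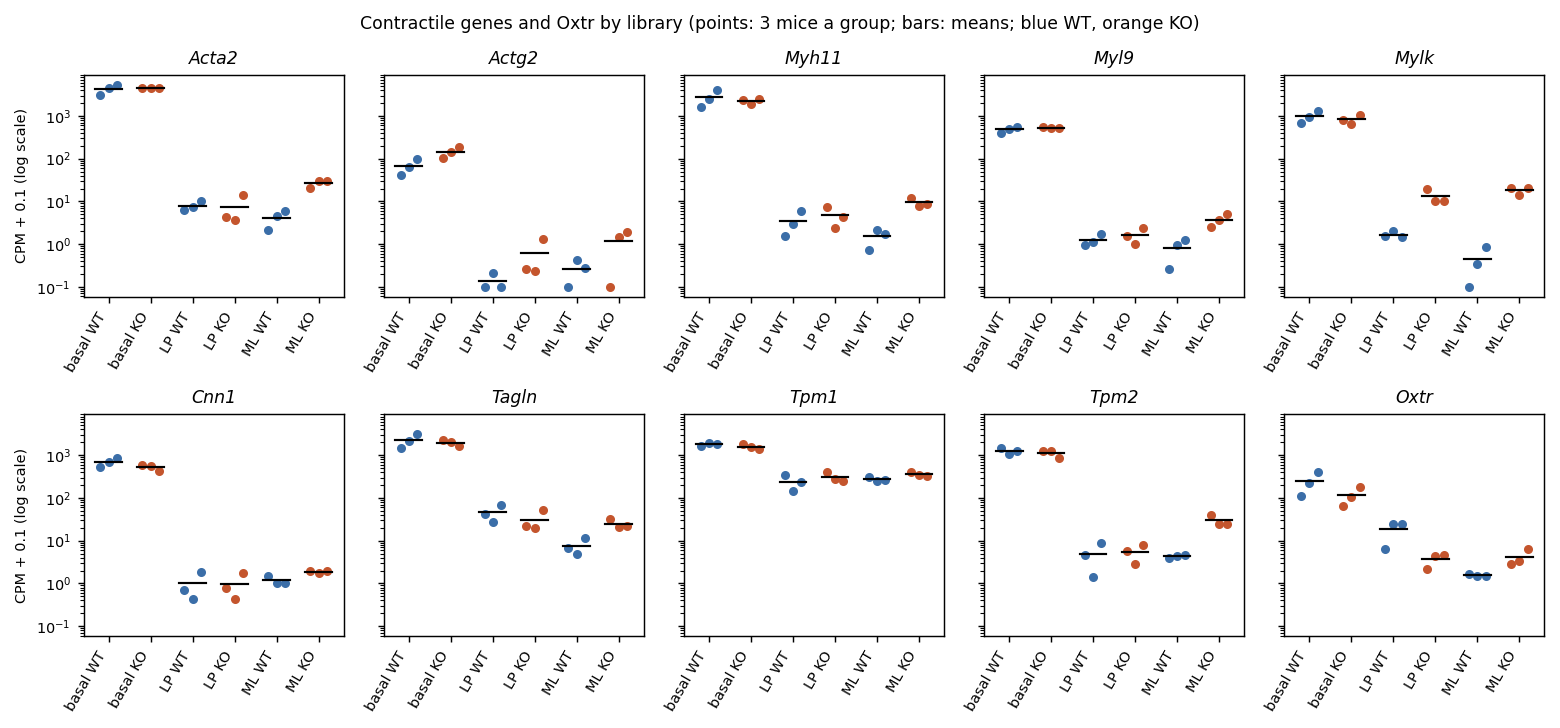
Level of each of the 10 genes in every library, in CPM plus 0.1 on a log scale, for basal, LP and ML cells of WT (blue) and KO (orange) mice; points are 3 mice a group and bars are means. Every basal library lies above every luminal library for each gene. The ML libraries of KO mice all lie above those of WT mice for 9 genes, Actg2 being the exception, and for 21.6% of all genes.

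Contractile genes are known targets of serum response factor, which binds CArG boxes (CC, then 6 bases that are A or T, then GG), and of TEAD factors, which bind CATTCC. RefSeq promoter sequences on GRCm38.p6, from 250 bases before to 50 after a start site, were matched for 7 of the 10 genes. Both motifs were searched on both strands, and they did not overlap in these promoters. An exact CArG box was found in 1 of the 7, that of Myl9 (CCTAATAAGG, starting at base -161), against 1.629% of 32851 mouse promoters of the same length. With 1 mismatch allowed, Acta2 (CCCTATATGG at -84 and CCTTGTTTGG at -34), Myl9 (CCTTGTAAGG at -99) and Tpm1 (CCATATATAG at -221 and CCAAAAAAGT at -80) held a match, as did 21.114% of all promoters. CATTCC or its reverse complement GGAATG was found in Acta2 at -146, in Mylk at -158 and in Tpm1 at -56, and in 14.663% of all promoters. No match was found for Cnn1, Tpm2 or Oxtr in this window. The promoters of Myl9 and Mylk are printed because both genes rose in KO ML cells and each carries a different one of these motifs. They run 5′ to 3′ on the plus strand from 200 bases before the start to the first annotated exon (for Myl9, to the start of the RefSeq gene), and capitals mark the CArG boxes of Myl9, exact and with 1 mismatch, and CATTCC in Mylk. The Mylk start lies inside the span of the longer gene model, and this stretch holds no annotated exon.
Myl9, chr2:156775264-156775407, 144 bases: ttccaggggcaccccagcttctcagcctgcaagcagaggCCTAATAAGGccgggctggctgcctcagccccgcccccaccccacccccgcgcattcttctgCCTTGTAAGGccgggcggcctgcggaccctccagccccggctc
Mylk, chr16:34784750-34784920, 171 bases: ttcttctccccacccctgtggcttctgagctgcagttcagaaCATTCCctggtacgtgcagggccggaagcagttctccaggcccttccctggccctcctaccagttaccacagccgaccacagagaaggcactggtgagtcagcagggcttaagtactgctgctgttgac

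The first comparison asked how far each gene was restricted to basal cells. All 10 genes were higher in basal cells than in LP and than in ML, in both genotypes and under every alternative processing tried. Over all genes tested, 36.1% were called between WT basal cells and WT LP, 19.2% as higher in basal cells and 16.9% as lower. Between WT basal cells and WT ML 53.3% were called, 28.5% as higher and 24.8% as lower. In KO mice the shares were 40.9% against LP (21.5% higher, 19.4% lower) and 34.4% against ML (18.1% higher, 16.3% lower). The basal gates were chosen to hold these cells, so the counts describe the sort as well as the genes.

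Acta2, the smooth muscle alpha-actin (chromosome 19, 34240336 to 34255585), was at 3138, 4561 and 5393 CPM in basal cells of the 3 WT mice. It was at 6.29, 7.12 and 10.3 CPM in their LP and at 2.06, 4.34 and 5.82 CPM in their ML. Its lowest basal library of either genotype was 104-fold above its highest luminal library, an ML library of KO mouse 3. Myh11, the smooth muscle myosin heavy chain (chromosome 16, 14194527 to 14292188), showed a separation of 134-fold between those extremes. Cnn1, calponin (chromosome 9, 22099221 to 22109221), showed the widest of the 10, at 226-fold, with 698 ± 157 CPM in WT basal cells and 0.909 ± 0.765 CPM in WT LP. Myl9 (79.8-fold), Mylk (30.7-fold), Actg2 (22.7-fold), Tagln (21.2-fold) and Tpm2 (21.0-fold) lay between these and the remaining pair.

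Tpm1 and Oxtr had the smallest separations, at 3.48-fold and 2.65-fold. Tpm1, whose tropomyosins also serve the non-muscle cytoskeleton, was at 238 ± 95.3 CPM in WT LP and 275 ± 33.2 CPM in WT ML, and its WT basal level of 1784 ± 174 CPM was 7.49-fold the LP level (log2 2.91, SE 0.28). For Oxtr the narrow gap came from its highest luminal library, LP of WT mouse 3, and from its lowest basal library, that of KO mouse 1 at 65.6 CPM. Actg2, the smooth muscle gamma-actin, had 1 count in all WT LP libraries together against 3612 in WT basal cells, a ratio of 2091 with a 95% counting interval of 375 to 82594.

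Markers of other contractile and stromal cells were read in the same libraries. Of 10 pericyte and vascular smooth muscle markers, Rgs5 was at 3.63 ± 1.36 CPM, Pdgfrb at 16.4 ± 4.14 CPM, Des at 3.56 ± 1.07 CPM and Myocd at 0.839 ± 0.0899 CPM in WT basal cells, and none of the list was at 0 in all 3 libraries. The summed level of the list was 165 to 334 CPM in WT basal libraries, 211 to 217 CPM in KO basal libraries and 123 to 330 CPM in luminal libraries, led by Mcam in the former and Notch3 in the latter. The fibroblast list summed to 2440 to 4537 CPM in basal libraries, led by Postn and Mmp2, with the collagen Col1a1 at 33.8 ± 5.39 CPM in WT basal cells. What part such cells had in the basal level of the members was not tested.

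Between the luminal populations of WT mice, 3 of the 10 genes were lower in ML than in LP (34% of all genes were called, 18.3% lower and 15.7% higher) and none was higher. Tagln was at 7.51 ± 3.30 CPM in ML and 46.6 ± 21.4 CPM in LP (log2 -2.61, SE 0.44, adjusted p 1.76e-04). Oxtr was at 1.46 ± 0.113 CPM in ML and 18.5 ± 10.4 CPM in LP (log2 -3.69, SE 0.61, adjusted p 1.43e-04). Mylk was at 0.340 ± 0.393 CPM in ML and 1.57 ± 0.283 CPM in LP (adjusted p 0.0192). The Mylk call was lost without LP WT replicate 2 (adjusted p 0.0560), without ML WT replicate 2 (0.0718) and with only the libraries compared in the fit (0.106). With the mouse as a block, Acta2 (adjusted p 0.0438) and Myh11 (0.0130) were called lower too, which made 5, and Myh11 was also called without LP WT replicate 1 (0.0360).

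In KO mice the calls between the luminal populations lay in the other direction. Of the 10 genes, 3 were higher in ML than in LP (11.5% of all genes were called, 8.34% higher and 3.14% lower) and none was lower. Acta2 was at 26.6 ± 5.28 CPM in KO ML against 7.34 ± 5.94 CPM in KO LP (log2 1.86, SE 0.43, adjusted p 0.00830). Tpm2, the beta-tropomyosin, was at 30.1 ± 9.36 against 5.40 ± 2.59 CPM (log2 2.47, SE 0.45, adjusted p 0.00126). Myl9 was at 3.64 ± 1.33 against 1.55 ± 0.732 CPM (adjusted p 0.0302). With only these libraries in the fit 1 call was left, that of Tpm2, and without LP KO replicate 3, which had the highest LP level of Acta2, Actg2, Myl9, Cnn1, Tagln, Tpm2 and Oxtr among KO mice, there were 5, with Actg2 (adjusted p 0.0390) and Cnn1 (0.0183) added. The Myl9 call was also lost with thinned libraries (adjusted p 0.140) and without LP KO replicate 1 (0.0904), LP KO replicate 2 (0.115), ML KO replicate 2 (0.0755) or ML KO replicate 3 (0.185). With the mouse as a block Myh11 was called higher (adjusted p 0.0105).

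The second comparison asked whether loss of Brca2 with 1 Trp53 allele changed these genes within each population. In basal cells none of the 10 genes passed the test in the edgeR fit, in DESeq2 or in any other setting tried, where 2.54% of all genes were called, 2.47% higher and 0.0668% lower. At an unadjusted p under 0.05 there was 1, Oxtr. The median log2 difference of the 10 was -0.19, and that of all genes -0.02. Luminal markers differed between the basal libraries of the 2 genotypes. Of 10 LP markers 3 were higher in KO (median log2 1.73), of 10 ML markers 2 (1.46) and of 8 shared luminal markers 2 (0.48). None of these was called lower. Of 15 basal markers 1 was higher and none lower (median -0.20). The part of these markers in the basal values of the members was not tested.

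The basal levels of the filament genes lay close together in the 2 genotypes. Acta2 was at 4532, 4601 and 4525 CPM in KO basal libraries, within the range of the WT libraries, and its log2 difference was 0.06 (SE 0.41). Myh11 had 2346, 1926 and 2428 CPM in KO and 1620, 2531 and 3996 CPM in WT basal cells, again with the KO libraries inside the WT range. Of the other contractile genes, Myl9, Mylk, Cnn1, Tagln, Tpm1 and Tpm2 had log2 differences from -0.43 to 0.14, with overlapping libraries for each. For all of these genes but Cnn1 and Tpm1, the SD between WT mice exceeded the difference of the group means. Among WT mice, mouse 1 had the lowest basal level of 9 of the 10 genes and mouse 3 the highest of 8. Among KO mice none was highest for more than 5.

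Actg2 and Oxtr had the largest basal differences, in opposite directions, and neither passed the test. Actg2 was at 42.2, 63.1 and 98.1 CPM in WT and 104, 145 and 185 CPM in KO basal cells. All 3 KO libraries were above all 3 WT libraries, as for 10.8% of all genes, with a log2 difference of 1.09 (SE 0.58, adjusted p 0.564, and 0.139 to 0.871 over the alternatives). Per length, Actg2 stood at 1.82, 1.87 and 2.46% of the Acta2 level in the WT basal libraries and at 3.11, 4.26 and 5.52% in the KO ones, with no overlap. Oxtr was at 110, 221 and 408 CPM in WT and 65.6, 103 and 183 CPM in KO basal cells. These ranges overlapped, and the log2 difference was -1.07 (SE 0.49, unadjusted p 0.0424, adjusted p 0.445, and 0.0644 to 0.915 over the alternatives).

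**Figure D2:**
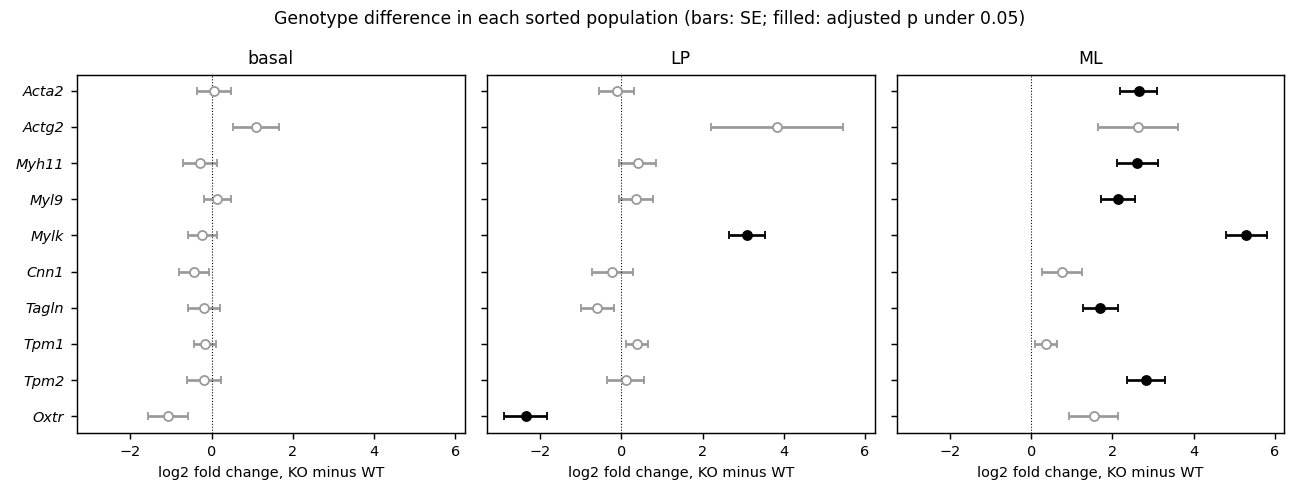
Log2 fold change of KO minus WT for each of the 10 genes in basal, LP and ML cells, with bars of 1 SE; filled points passed the adjusted p of 0.05. No point is filled in basal cells, Mylk (higher) and Oxtr (lower) are filled in LP, and 6 genes are filled on the higher side in ML.

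In LP, 2 of the 10 genes passed the test, 1 in each direction, against 13.2% of all genes (7.55% higher and 5.68% lower). The kinase gene Mylk (chromosome 16, 34745199 to 35002436) was at 1.48, 1.89 and 1.35 CPM in WT and 19.7, 10.1 and 10.3 CPM in KO LP. The lowest KO library was thus well above the highest WT library. The rise was 8.55-fold (log2 3.10, SE 0.44, adjusted p 3.17e-04), and it rested on 12, 17 and 22 counts in WT and 472, 363 and 312 counts in KO. Mylk exons overlap antisense genes over 4.87% (E130310I04Rik) and 1.99% (Gm21691) of their length, and the library kit does not mark strand, so reads there cannot be assigned to one gene.

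Oxtr (chromosome 6, 112473683 to 112491035) was the gene that fell in LP. It was at 6.41, 24.2 and 24.8 CPM in WT and 2.04, 4.27 and 4.55 CPM in KO LP. WT mouse 1 was lower than the other WT mice but above all 3 KO mice. The fall was 5.10-fold (log2 -2.35, SE 0.53, adjusted p 0.00816). Both LP calls were kept in all 13 alternatives, with libraries thinned to one depth among them, and the largest adjusted p was 0.00608 for Mylk and 0.0409 for Oxtr.

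The other 8 genes did not pass the test in LP. Actg2 was found with 0, 1 and 0 counts in WT and 4, 5 and 37 counts in KO LP, all KO libraries above all WT libraries, as for 17.7% of all genes. The ratio of the pooled and depth-scaled counts was 17.04 with a 95% counting interval of 2.91 to 687, and the adjusted p was 0.121. Where Actg2 had no count, up to 0.370 CPM in LP of WT mouse 1 and 0.184 CPM in LP of WT mouse 3 would have been missed. For Acta2, Myh11, Myl9, Cnn1, Tagln, Tpm1 and Tpm2 the log2 differences were between -0.59 and 0.40, and the libraries of the 2 genotypes overlapped for each. Among 15 markers of basal epithelium, 3 were higher and 1 lower in KO than in WT LP. Krt5 was at 3.77 ± 2.56 against 2.60 ± 0.838 CPM there. The median log2 difference of the 15 markers was 0.42, and that of all genes 0.02. The summed level of the list was 554 to 715 CPM in KO and 830 to 1276 CPM in WT LP. That sum was led by Itga6 and Lgals7 in KO and by Dst and Itga6 in WT LP, so it says little about the keratins. As a share of basal cells of the same mouse, Krt14 stood at 0.517 to 2.20% in KO and 0.107 to 0.377% in WT LP. For Krt5 the shares were 0.129 to 0.412% and 0.0941 to 0.188%. No marker was at 0 in all libraries of a group. Of 10 ML markers, 4 were lower in KO LP and none was higher, and that list summed to 276 to 494 CPM in KO and 656 to 1003 CPM in WT LP. Of 5 tested immune markers 2 were higher, with a sum of 9.48 to 44.9 CPM in KO and 7.36 to 13.2 CPM in WT LP. Of 10 fibroblast markers 1, Postn, was higher, with sums of 75.6 to 182 and 42.7 to 83.1 CPM. The part of any of these in the LP values was not tested.

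In ML, 6 of the 10 genes rose in KO mice and none fell, where 15.1% of all genes were called, 12.5% higher and 2.62% lower. The median log2 difference was 2.37 for the 10 genes and 0.02 for all genes. The 6 were Acta2, all 3 myosin genes (Myh11, Myl9 and Mylk), Tagln and Tpm2. Even so, their KO ML levels stayed far below those of basal cells of the same mice.

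Mylk had the largest change of the 10 in ML. It was at 0, 0.250 and 0.770 CPM in WT and 20.9, 13.8 and 20.0 CPM in KO ML, from 0, 3 and 18 counts against 211, 498 and 505. Every KO library was above every WT library, and ML of WT mouse 1, with no count, could have held up to 0.475 CPM unseen. The fitted log2 difference was 5.30 (SE 0.50, adjusted p 9.45e-07). Its levels in ML and LP of KO mice, 18.2 ± 3.90 and 13.4 ± 5.47 CPM, overlapped.

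Acta2 was at 2.06, 4.34 and 5.82 CPM in WT and 20.5, 29.2 and 30.1 CPM in KO ML, a rise of 6.28-fold (log2 2.65, SE 0.45, adjusted p 4.27e-04). Myh11 was at 0.634, 2.00 and 1.67 CPM in WT and 12.1, 7.54 and 8.62 CPM in KO ML (log2 2.61, SE 0.51, adjusted p 0.00131). Myl9, the light chain that Mylk phosphorylates (chromosome 2, 156775408 to 156781657), was at 0.158, 0.834 and 1.16 CPM in WT and 2.38, 3.51 and 5.02 CPM in KO ML (log2 2.14, SE 0.42, adjusted p 0.00141). For these 3 genes, as for Mylk, the genotypes did not overlap and the call was kept in all 13 alternatives.

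Tpm2 (chromosome 4, 43513726 to 43523583) was at 3.801, 4.25 and 4.49 CPM in WT and 40.9, 24.98 and 24.3 CPM in KO ML, a 7.10-fold rise (log2 2.83, SE 0.47, adjusted p 3.14e-04). Its partner Tpm1 (chromosome 9, 67022590 to 67049672) was at 313, 252 and 259 CPM in WT and 401, 338 and 322 CPM in KO ML. All Tpm1 libraries of KO mice were above those of WT mice, as for 21.6% of all genes, but the 1.29-fold difference did not pass the test (adjusted p 0.391).

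Tagln, transgelin (chromosome 9, 45929628 to 45936058), was at 6.49, 4.84 and 11.2 CPM in WT and 32.3, 20.9 and 21.6 CPM in KO ML (log2 1.70, SE 0.43, adjusted p 0.0102). The call was lost without ML WT replicate 2 (adjusted p 0.0629). Of its exonic bases, 62.4% overlap the antisense gene Gm48529 and 5.43% overlap Pcsk7 on the other strand, so its counts could include reads of either. Cnn1 was at 0.918 to 1.43 CPM in WT and 1.63 to 1.88 CPM in KO ML. All its KO libraries were higher, as for 21.6% of all genes, and it did not pass the test (log2 0.77, SE 0.49, adjusted p 0.328).

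Actg2 (chromosome 6, 83512909 to 83536251) had 0, 4 and 4 counts in WT and 0, 50 and 47 counts in KO ML, so that KO mouse 1 lay with the WT mice. Its adjusted p was 0.0811, and 0.0248 without ML KO replicate 1. Oxtr was at 1.58, 1.42 and 1.37 CPM in WT and 2.68, 3.31 and 6.33 CPM in KO ML, all KO libraries being higher, as for 21.6% of all genes. Its log2 difference of 1.54 (SE 0.60) had an adjusted p of 0.0955. With the replicate number as a block, both Actg2 (adjusted p 0.0259) and Oxtr (0.00716) were called higher in KO ML, which made 8, although the numbers do not pair mice of different genotypes. Actg2 was also called with no filter on low counts (0.0442), and Oxtr in DESeq2 (0.0384).

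Markers of basal epithelium moved with these genes in ML. Of 15 such markers, 11 were higher and 1, Dst, was lower in KO than in WT ML. Krt5 was at 2.64 ± 0.788 CPM in WT and 157 ± 23.4 CPM in KO ML, Krt14 at 3.84 ± 2.71 and 262 ± 40.6 CPM, and Krt17 at 3.37 ± 1.46 and 254 ± 55.1 CPM. The summed level of the list was 1767 to 2420 CPM in WT and 1889 to 2433 CPM in KO ML, led by Dst and Itga6 in both, and none of the 15 was at 0 in all libraries of a group. Of 10 LP markers 9 were higher in KO ML, Kit among them at 184 ± 66.5 against 11.8 ± 1.37 CPM. The list summed to 1055 to 2933 CPM in KO and 297 to 462 CPM in WT ML. Of 10 ML markers none was higher and 4 were lower, Esr1 among them at 80.2 ± 30.1 against 231 ± 56.5 CPM, and the list summed to 1776 to 4857 CPM in KO and 7495 to 10421 CPM in WT ML. Of 10 fibroblast markers 2 were higher, Postn and Mmp2, with sums of 230 to 476 CPM in KO and 60.03 to 274 CPM in WT ML. Of 9 tested pericyte and vascular smooth muscle markers 3 were higher in KO ML (Mcam, Cspg4 and Abcc9) and none was lower. The 9 had a median log2 difference of 1.43, and all genes one of 0.02. Rgs5 (0.473 ± 0.132 against 0.549 ± 0.0734 CPM), Pdgfrb and Des stayed under 3 CPM in every ML library. The part of these markers in the rise of the members was not tested. In bulk RNA, a change in the number of cells of a type and a change in RNA per cell cannot be told apart.

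The share of the basal level that reached ML was then set beside that of the basal markers, mouse by mouse. In ML of KO mice, the 10 genes stood at a median of 0.974, 1.00 and 1.17% of their level in basal cells of mouse 1, 2 and 3. The 15 basal markers stood at 10.4, 11.7 and 10.2% in the same mice. In WT mice the medians were 0.162 to 0.199% for the 10 genes and 0.189 to 0.624% for the markers.

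Among the members in KO ML, Acta2 stood at 0.453 to 0.665% of basal cells, Myh11 at 0.355 to 0.516% and Cnn1 at 0.293 to 0.436%. Krt5 stood at 8.64 to 10.4% and the transcription factor Trp63 at 7.90 to 17.6%. Mylk (1.90 to 2.66%), Tpm2 (2.04 to 3.27%), Oxtr (3.23 to 4.08%) and Tpm1 (21.7 to 23.0%) stood higher than the other members. The markers were spread too, from Sparc at 1.60 to 2.39% to Dsg3 at 69.1 to 125%. These shares compare libraries of the same mouse and were not put to a test.

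**Figure D3:**
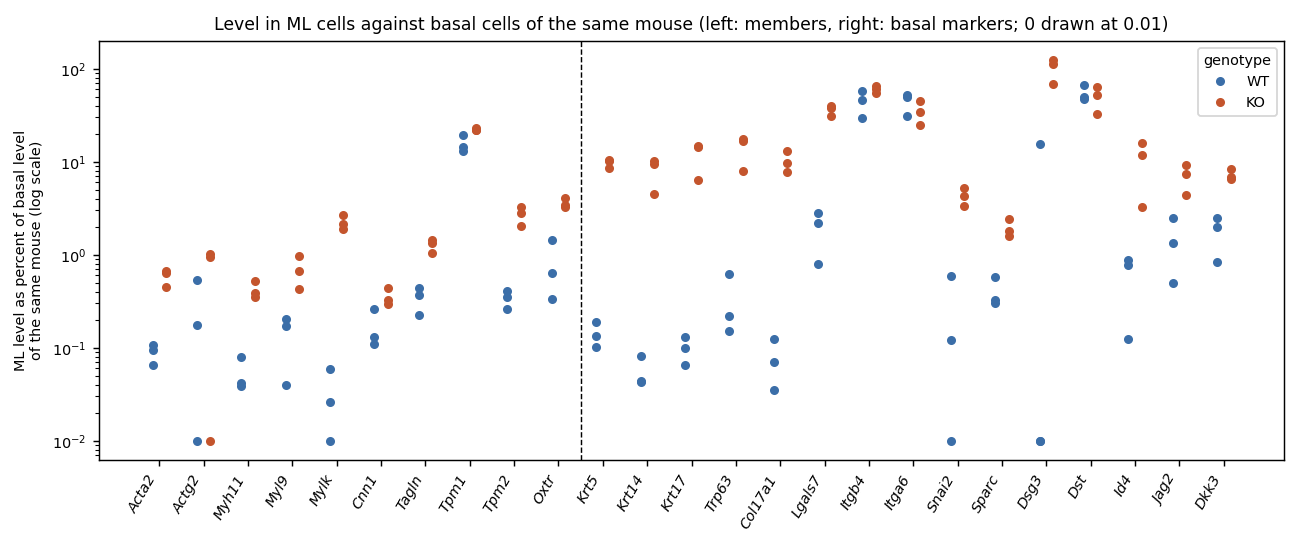
Level in ML cells as a percent of basal cells of the same mouse, on a log scale, for the 10 genes (left of the dashed line) and 15 basal markers (right), for WT (blue) and KO (orange) mice; values of 0 are drawn at 0.01. In KO mice the members stand at a median of about 1% (0.974, 1.00 and 1.17% by mouse), and the markers at 10.4, 11.7 and 10.2%.

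Whether the genotype difference itself differed between populations was tested by interaction. Between ML and basal cells it differed for 5 of the 10 genes, all toward a larger rise in ML (6.1% of all genes were called, 5.02% in that direction and 1.08% in the other): Acta2, Myh11, Myl9, Mylk and Tpm2. For Acta2, Myh11, Mylk and Tpm2 the call was kept in all 19 alternatives. For Myl9 it was lost in 7 of them: thinning, and leaving out ML WT replicate 1 or 2, ML KO replicate 3, basal WT replicate 3, or basal KO replicate 2 or 3 (adjusted p 0.0554 to 0.0934). Tagln and Oxtr were each called as well in 6 of the 19 alternatives. Among these were the mouse block (adjusted p 0.0149 for Tagln and 0.00147 for Oxtr) and DESeq2 (0.0186 and 0.0106). The others included no filter on low counts (0.0335 and 0.0194) and only the libraries compared (0.0220 and 0.0366).

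Between LP and basal cells the genotype difference differed for 1 of the 10 genes, Mylk, with a log2 interaction of 3.33 (SE 0.56, adjusted p 0.00720; 1.02% of all genes were called, 0.364% in that direction and 0.656% in the other). That call was kept in all 19 alternatives. Between ML and LP it differed for 4 genes, Acta2, Tagln, Tpm2 and Oxtr (6.93% of all genes were called, 5.7% in that direction and 1.23% in the other). With the mouse as a block, and in DESeq2, 7 genes were called, Myh11, Myl9 and Mylk being added. Without LP WT replicate 3 there were 2, Acta2 and Oxtr. For Tagln the call was also lost without LP KO replicate 1 or 2, ML KO replicate 1, or ML WT replicate 1 or 2 (adjusted p 0.0523 to 0.0657), and for Tpm2 with only the libraries compared.

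Oxtr was ordered as follows among the 6 groups. Its level was highest in WT basal cells (246 ± 151 CPM) and KO basal cells (117 ± 60.02 CPM), which overlapped. LP of WT mice came next at 18.5 ± 10.4 CPM, separated from the groups on either side. ML and LP of KO mice (4.11 ± 1.95 and 3.62 ± 1.37 CPM) overlapped, and ML of WT mice was lowest at 1.46 ± 0.113 CPM. For Acta2, by contrast, KO ML stood below the basal groups and above the other luminal groups, and LP of both genotypes overlapped (7.90 ± 2.12 and 7.34 ± 5.94 CPM). For Mylk both KO luminal groups stood above both WT luminal groups. For Tagln the order of means was that of Oxtr except that KO LP stood above KO ML, and these 2 groups overlapped for both genes. Unlike for Oxtr, LP of both genotypes overlapped for Tagln, and ML of WT mice was again lowest.

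Other genes of the contractile apparatus, from a list of 28, were also mostly higher in basal cells: 19 than in LP and 21 than in ML of WT mice, with 2 lower in each. Of all genes, 19.2% were called higher and 16.9% lower than in LP, and 28.5% and 24.8% than in ML. In the genotype comparison 1 of the 28 rose and none fell in basal cells, beside 2.47% of all genes called higher and 0.0668% lower. In LP 3 rose and 2 fell, beside 7.55% and 5.68% of all genes. In ML 9 rose and none fell, beside 12.5% and 2.62%. The basal gene was Ckb, brain-type creatine kinase, at 28.6 ± 9.20 CPM in WT and 73.2 ± 2.88 CPM in KO (log2 1.36, SE 0.33, adjusted p 0.0329). In LP, the light chain Myl12b (log2 1.15) and the calponins Cnn2 (1.44) and Cnn3 (0.69) rose, and the filament-associated Csrp1 fell (-0.89). In ML, the actin crosslinker Flna (1.81), the caldesmon gene Cald1 (1.89) and the synaptopodin-related Synpo2 (4.54, from 2 counts in all WT ML libraries together) rose. The median of the 28 in ML was 0.38.

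The genes that set myosin phosphorylation, 20 in all (the calmodulins and the subunits of myosin phosphatase among them) gave no call in basal cells, 1 rise and 3 falls in LP and 1 rise in ML, beside 2.54%, 13.2% and 15.1% of all genes called. Prkg1, the cGMP-dependent kinase, was the one gene that passed in both luminal populations, with 49.4 ± 12.4 CPM in WT and 13.4 ± 2.86 CPM in KO LP (log2 -1.88, SE 0.37, adjusted p 0.00327), and 0.893 ± 0.804 CPM in WT and 8.86 ± 4.12 CPM in KO ML (log2 3.17, SE 0.45, adjusted p 5.57e-05). In LP the phosphatase inhibitor Ppp1r14b rose (log2 1.26), while the calmodulin-dependent kinase Camk2d (-1.08) and the myosin phosphatase subunit Ppp1r12a (-0.89) fell.

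On the signalling side of Oxtr, 36 genes of the G protein, phospholipase C and calcium route, related receptors and oxytocin itself were examined. In basal cells 1 fell and none rose: the protein kinase C gene Prkca, from 152 ± 15.9 to 69.9 ± 4.99 CPM (log2 -1.12, SE 0.28, adjusted p 0.0346). In LP 5 fell and 1 rose, beside 13.2% of all genes called there and 2.54% in basal cells. The calcium release channel Itpr2 (log2 -1.22), the arrestin Arrb1 (-1.12), which ends receptor signalling, and Prkca (-1.21) fell there, and the calcium pump Atp2b4 rose (2.00). In ML 8 rose and 2 fell, beside 15.1% of all genes called. Of the 36, the calcium pumps Atp2b1 (log2 2.44) and Atp2b4 (2.52) and the channels Cacna1c (2.12) and Trpc1 (2.86) had the lowest p-values there. Oxt, the gene of the ligand, had at most 86 counts in the 3 libraries of a group (KO LP), and its ML call rested on 0 counts in WT and 13 in KO. Gnaq, the G protein gene through which Oxtr acts, was at 217 ± 29.2 CPM in WT and 215 ± 20.5 CPM in KO basal cells.

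Regulators of these genes, 20 in all, gave no call in basal cells or LP and 4 rises in ML: Sox10 (log2 4.65), Trp63 (4.61), Foxo1 (0.94) and Wwtr1 (0.77), of which Trp63 is also one of the 15 basal markers. In ML 12.5% of all genes were called higher, and the median log2 difference of the 20 was 0.17. Serum response factor itself, Srf, was at 238 ± 81.1 CPM in WT and 221 ± 75.8 CPM in KO basal cells, and at 164 ± 19.1 and 170 ± 15.1 CPM in ML. Myocardin, Myocd, its smooth muscle cofactor, had 50 counts in all WT basal libraries together and none in WT LP, KO LP or WT ML. Mrtfa and Mrtfb, the related cofactors, were at 64.9 ± 18.3 and 47.9 ± 12.8 CPM in WT basal cells. These lists were read by their counts, beside the shares of all genes called given above.

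**Figure D4:**
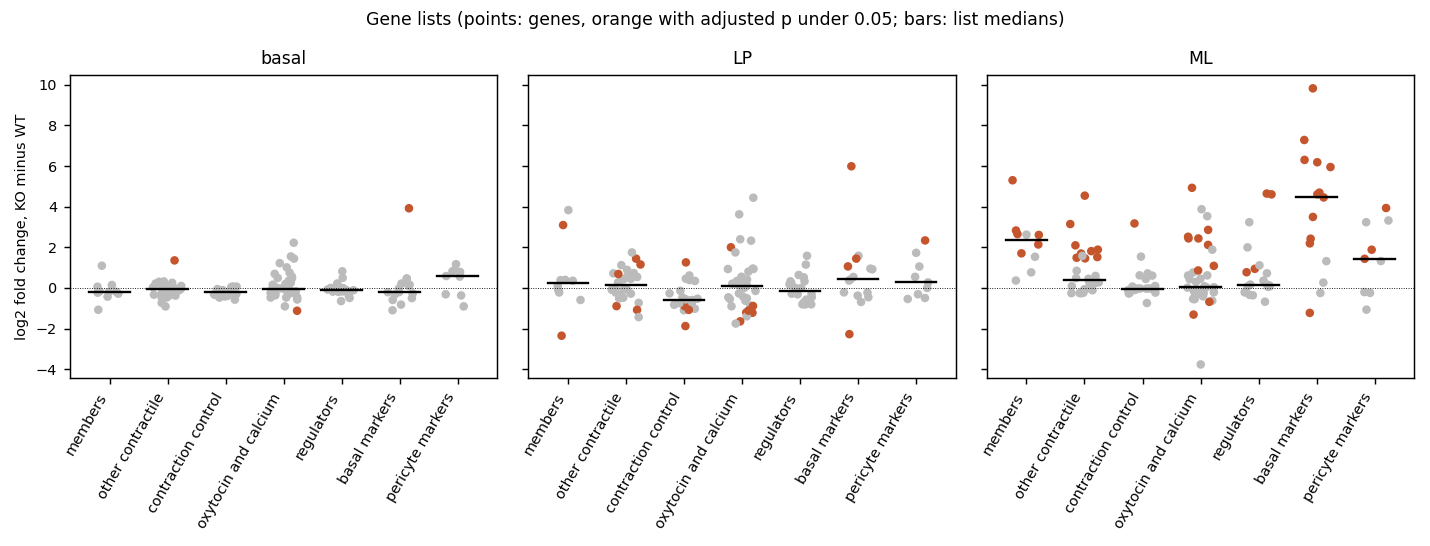
Log2 fold change of KO minus WT in basal, LP and ML cells for each gene of 7 lists: the 10 members, the other contractile genes, the control of contraction, oxytocin and calcium signalling, regulators, basal markers and pericyte markers; points are genes, orange with an adjusted p under 0.05, and bars are list medians. In ML the median is 2.37 for the members, 4.46 for the basal markers and 0.38 for the other contractile genes, and in basal cells the medians of these 3 lists lie between -0.20 and -0.06. The ML median of the pericyte markers is 1.43.

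Over the 18 libraries, the log levels of the members followed each other, with basal libraries high and luminal ones low for all of them. Among 12231 genes with a mean of at least 2 CPM, those most like Acta2 were Myl9 (Pearson r 0.996), Myh11 (0.990), Mrvi1 (0.987), Fmod (0.987) and Sparc (0.987). Those most like Oxtr were Lrp4 (0.971), Rasa3 (0.968), Sema6d (0.964), Prelp (0.958) and Smarca1 (0.956), and no contractile member was among them. The r of Oxtr with the 9 contractile genes ran from 0.810 (Tpm1) to 0.945 (Tagln). The 18 points are 6 groups of 3, libraries of 1 mouse share that mouse, and these values describe the pattern only.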

How the data were processed

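The deposited values were whole-number read counts per gene for 18 libraries, made by the authors with featureCounts on mm10, per the submitters' processing notes. The aligner was not given in the sources used here, nor was the annotation version or strand setting. RNA was prepared with a TruSeq RNA v2 kit, per the labels' protocols. The members and all gene lists were chosen with earlier results of these data known. Of 27179 Entrez gene IDs, 25275 matched a symbol in a RefSeq table (GRCm38.p6).

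All 18 libraries were fitted together in edgeR 4.0.16 (R 4.3.3) with 1 mean per group: filterByExpr, TMM scaling, default quasi-likelihood fit and test, and Benjamini-Hochberg adjustment over 16466 genes at 0.05, for 12 contrasts. The pipeline was run on simulated counts as a check of the code, with pass limits too loose to speak for its rate of false calls. Named genes were all 10 members, up to 4 genes of lowest p per other list, up to 4 of highest CPM per marker list (Rgs5, Pdgfrb, Des, Myocd, Col1a1 and any gene named beyond this were chosen after their values were seen), and the 5 genes most correlated with Acta2 and with Oxtr. A gene that the rule would name is not reported here. Counting intervals cover counting error only.

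Libraries with 1 mouse's identifier come from that mouse. Deviations from group means correlated at 0.0949 to 0.334 within a mouse (17 of 18 pairs over 0.1), and at -0.0977 to 0.258 for equal numbers across genotypes (4 of 9 pairs over 0.1), which are different mice. The main fit had no block, so its tests between populations did not use the pairing by mouse. Mouse was a block only in an alternative fit, for comparisons between populations and for interactions. Replicates of a group differed beyond sampling noise (chi-square per degree of freedom 22.6 to 204). Alternatives were RLE scaling, no filter, DESeq2 1.42.0, thinning, fewer libraries, blocks, leaving out each library and, added after seeing the data, a bias-adjusted edgeR fit.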

Additional observations from a re-analysis of the deposited data

Results flagged for a closer look

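The genotype difference (KO minus WT) of 10 gene and population pairs differed between 2 populations in the edgeR interaction test, with the p adjusted over all genes. Between LP and basal cells this held for Mylk alone, with a log2 difference of differences of 3.33 (SE 0.56, adjusted p 0.00720).

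Between ML and basal cells the values were 5.53 for Mylk (SE 0.62, adjusted p 1.81e-05), 3.02 for Tpm2 (SE 0.62, adjusted p 0.00500), 2.89 for Myh11 (SE 0.66, adjusted p 0.0106), 2.59 for Acta2 (SE 0.61, adjusted p 0.0126) and 2.00 for Myl9 (SE 0.53, adjusted p 0.0283). The Myl9 value was between 1.71 and 2.00 without ML KO replicate 3, ML WT replicate 1 or 2, basal KO replicate 2 or 3 or basal WT replicate 3, and not called in any of these. In each of these genes the KO minus WT difference was positive in ML and not called in basal cells.

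Between ML and LP the values were 3.89 for Oxtr (SE 0.79, adjusted p 0.00463), 2.77 for Acta2 (SE 0.62, adjusted p 0.00907), 2.73 for Tpm2 (SE 0.64, adjusted p 0.0129) and 2.29 for Tagln (SE 0.59, adjusted p 0.0222). Oxtr was lower in KO LP and, without passing the test, higher in KO ML. Without LP WT replicate 3 the Tpm2 and Tagln values were 1.93 (adjusted p 0.0564) and 1.90 (adjusted p 0.0527).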

How the results depend on the processing

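The count of members called was the same in every alternative for basal KO minus WT (0), LP KO minus WT (2), the LP against basal interaction (1) and the 4 comparisons of basal with luminal cells (10). It moved by more than 1.5 times in 6 cases: WT ML minus LP from 3 to 5 with the replicate block by mouse, KO ML minus LP from 3 to 1 with only the libraries compared and to 5 without LP KO replicate 3, and the ML against LP interaction from 4 to 7 in DESeq2, to 7 with the replicate block by mouse and to 2 without LP WT replicate 3. Leaving out 1 library gave 5 to 7 for ML KO minus WT, 2 to 4 for WT ML minus LP, 2 to 5 for KO ML minus LP, 4 to 7 for the ML against basal interaction and 2 to 5 for the ML against LP interaction. The cause was not tested. The replicate blocks changed no call in the basal and LP genotype comparisons or between basal and luminal cells.

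Of 1336 alternative values of 96 member results, 1255 kept direction and call, 26 lost a call, 40 gained one and 15 changed sign, none of the 15 called. Leaving out 1 library in turn, the log2 difference in basal cells ranged from -0.13 to 0.24 for Acta2, -0.55 to 0.10 for Myh11, -0.45 to 0.022 for Mylk and -0.42 to 0.11 for Tagln, changing sign without WT replicate 1 for Acta2 and without WT replicate 3 for the others. In LP it ranged from -1.02 to 0.21 for Acta2, -0.093 to 1.07 for Myh11, -0.084 to 0.74 for Myl9, -1.07 to 0.90 for Cnn1 and -0.32 to 0.93 for Tpm2. Thinning gave 0.024 for Cnn1 and -0.095 for Tpm2 in LP. A further 24 member results, never called in any setting and outside the genotype comparison, were set aside after their values were seen and are not given singly here; 31 of their 400 alternative values changed sign. Depth limits Actg2 in luminal cells of WT mice (0 to 4 counts per library) and Mylk, Myl9 and Myh11 in ML of WT mouse 1 (0, 1 and 4 counts).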

Other observations

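Ratios between paired genes were also read in basal cells. That of Actg2 to Acta2, given above, did not overlap between the genotypes, and those below did. Per length, Tpm2 stood at 83.7 to 143% of Tpm1 in WT and 96.0 to 123% in KO basal libraries. Myl9 stood at 86.3 to 151% of Myh11 in WT and 131 to 167% in KO basal libraries, and Mylk at 27.4 to 34.98% and 28.3 to 36.8% of Myh11. Oxtr stood at 1.37, 1.89 and 2.95% of Acta2 in the WT and 0.564, 0.869 and 1.58% in the KO basal libraries, with overlapping ranges. None of these ratios was put to a test.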
